A study of Homo sapiens with 3 samples.

Results

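The widest SIRT1 peaks away from both gene ends and acetylated chromatin are described here in THP1, a human monocytic leukaemia line. The peaks come from chromatin immunoprecipitation followed by sequencing (ChIP-seq). The wild-type cells were cultured with serum and treated with PMA for 24 h in all 3 samples, 1 with an antibody to H3K27ac, 1 with an antibody to SIRT1 and 1 input without antibody. PMA, a phorbol ester, makes these monocytic cells adhere and take on macrophage features, and no untreated cells enter the comparison. Each antibody was used in 1 library, so nothing here has a replicate check, and the input was not analysed here.

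Members were taken from the 95225 SIRT1 peaks on chromosomes 1 to 22 and X. A peak was called distal when its summit lay more than 1 kb from every end of a protein-coding gene record (GRCh38) and it shared no base with an H3K27ac peak. This left 92701 distal peaks, and the 1000 widest are the members, 1.08% of the distal peaks. The other 91701 distal peaks serve as the comparison. Members were chosen by the measured width of the SIRT1 peak, and fold, p, q and fragment number come from the same signal, so these values are a description and were not tested. Intervals are 95% exact binomial (Clopper-Pearson) intervals, cover counting error only, and treat peaks as separate although neighbouring peaks share a region and a library.

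SIRT1 is an NAD-dependent deacetylase that removes acetyl groups from histones and from transcription factors. It has no DNA-binding domain of its own and reaches chromatin through partner proteins. H3K27ac marks active promoters and enhancers, so a SIRT1 peak without it lies outside the chromatin that is most active by this mark. The H3K27ac map carried the mark near an end of 13 of 20 macrophage identity genes. In the lists of other cell types, of 20 genes each, 5 B cell, 5 erythroid, 4 T and NK cell and 2 hepatocyte genes carried it. The share over all coding genes is not given here, so these counts have no base rate.

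All members had their summit over 1 kb from the ends of coding genes, but the peak itself can reach closer. Of the 909 members on chromosomes covered by the RefSeq promoter table, 8 touched an annotated start window. These windows lay at an internal start or at the start of a non-coding gene. Each window runs from 250 bases before to 50 after the start. The share was 0.88%, against 0.375% of 86357 other distal peaks (324), and a wider peak covers more bases that can touch a window. The 5 windows below were chosen from the 9 that members touched. They are 3 at starts of long non-coding RNA genes and 2 at internal starts of coding genes. Sequences are RefSeq GRCh38.p14, read 5′ to 3′ on the strand of the gene, and capitals mark the bases inside the SIRT1 peak.
LOC105372777, plus strand, chr21:31255170-31255469: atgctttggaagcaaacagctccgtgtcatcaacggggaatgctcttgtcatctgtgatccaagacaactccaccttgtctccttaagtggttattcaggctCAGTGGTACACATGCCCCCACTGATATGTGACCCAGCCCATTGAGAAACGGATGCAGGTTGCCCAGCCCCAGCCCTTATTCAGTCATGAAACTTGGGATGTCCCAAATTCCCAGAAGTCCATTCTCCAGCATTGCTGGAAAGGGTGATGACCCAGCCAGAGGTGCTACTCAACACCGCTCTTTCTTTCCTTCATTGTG
LOC124902156, plus strand, chr9:38687480-38687779: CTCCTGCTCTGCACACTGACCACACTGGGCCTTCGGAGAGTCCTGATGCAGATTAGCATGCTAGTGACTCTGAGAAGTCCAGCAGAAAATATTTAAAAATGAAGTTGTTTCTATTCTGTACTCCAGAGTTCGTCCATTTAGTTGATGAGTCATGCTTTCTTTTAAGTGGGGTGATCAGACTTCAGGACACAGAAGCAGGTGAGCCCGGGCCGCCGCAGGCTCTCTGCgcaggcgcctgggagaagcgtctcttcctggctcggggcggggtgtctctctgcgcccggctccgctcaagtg
LOC284798, minus strand, chr20:25147944-25148243: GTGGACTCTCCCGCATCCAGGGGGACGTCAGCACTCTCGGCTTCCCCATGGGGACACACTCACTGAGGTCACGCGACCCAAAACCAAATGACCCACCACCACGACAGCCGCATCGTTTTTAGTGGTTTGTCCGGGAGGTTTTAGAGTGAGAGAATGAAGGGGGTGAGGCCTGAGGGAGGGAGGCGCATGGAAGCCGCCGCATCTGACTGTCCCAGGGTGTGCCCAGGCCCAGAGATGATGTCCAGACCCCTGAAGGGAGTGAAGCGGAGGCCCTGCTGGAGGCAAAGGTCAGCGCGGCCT
NTM, plus strand, chr11:132211526-132211825: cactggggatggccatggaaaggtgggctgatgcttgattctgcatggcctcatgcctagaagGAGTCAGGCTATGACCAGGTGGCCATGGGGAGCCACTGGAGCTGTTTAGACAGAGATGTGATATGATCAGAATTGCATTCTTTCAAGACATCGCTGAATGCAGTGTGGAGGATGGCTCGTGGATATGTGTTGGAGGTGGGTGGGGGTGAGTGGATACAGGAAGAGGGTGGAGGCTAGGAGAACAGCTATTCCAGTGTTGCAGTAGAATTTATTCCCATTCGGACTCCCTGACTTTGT
FREM1, minus strand, chr9:14910379-14910678: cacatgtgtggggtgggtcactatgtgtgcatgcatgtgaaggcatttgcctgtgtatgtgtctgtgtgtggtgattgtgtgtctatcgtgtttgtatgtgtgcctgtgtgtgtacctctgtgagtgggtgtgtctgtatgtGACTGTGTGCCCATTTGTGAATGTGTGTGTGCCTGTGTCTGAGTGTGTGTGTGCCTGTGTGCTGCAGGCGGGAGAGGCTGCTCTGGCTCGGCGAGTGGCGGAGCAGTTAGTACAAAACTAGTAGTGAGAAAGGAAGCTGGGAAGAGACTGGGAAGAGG

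At LOC105372777, a long non-coding RNA gene inside the record of TIAM1, which encodes an activator of the GTPase Rac, the summit at 31255425 fell inside the window. That member was 938 bp wide, had 3 fragments at its summit and a fold of 2.94. The summit also fell inside the second window of LOC124902156, where the member was 941 bp wide on 5 fragments, with a background 3.03 times the lowest of the list. LOC284798 was covered over all 300 bases by a member of 1014 bp on 2 fragments. At NTM, which encodes the neuronal adhesion protein neurotrimin, 237 bases were shared with a member of 894 bp. FREM1, an extracellular matrix protein gene, shared 158 bases with a member of 1021 bp on 6 fragments. GC content of these 5 windows ran from 50.3% to 61.7%, and that of all 9 windows touched from 40.7% to 63.7%. The median over 35116 windows was 58.7%. Of the 9 windows touched, 1 held the AP-1 letters TGACTCA on either strand (4.95% of all windows do), in LOC124902156. The PU.1 letters GAGGAAGT (2.59% of all windows) and TATAAA (11.5%) were in 0 of the 9 on either strand. These letters describe the windows and say nothing about which factor was bound.

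Members were 814 to 1941 bp wide, with a median of 906 bp, and 257 were wider than 1000 bp and 10 wider than 1500 bp. The narrowest peak of the list was 253 bp wide, so every member was at least 3.22 times that width. The other distal peaks had a median of 300 bp. All members together covered 0.951 Mb. At the limit, the last member was a peak on chromosome 9 from 27747875 to 27748688, 814 bp wide with a fold of 2.94 on 3 fragments. The first peak left out, on chromosome 11 from 103829558 to 103830371, was also 814 bp wide and had a fold of 4.17 on 5 fragments. Chromosomes were ordered by number to break this tie, and alphabetical order exchanges these 2 peaks only. Peaks of at least this width were no more frequent in distal positions than elsewhere: 1.08% of distal peaks, 1.18% of the 1860 peaks at gene ends and 1.27% of the 711 sharing bases with H3K27ac reached it.

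**Figure D1:**
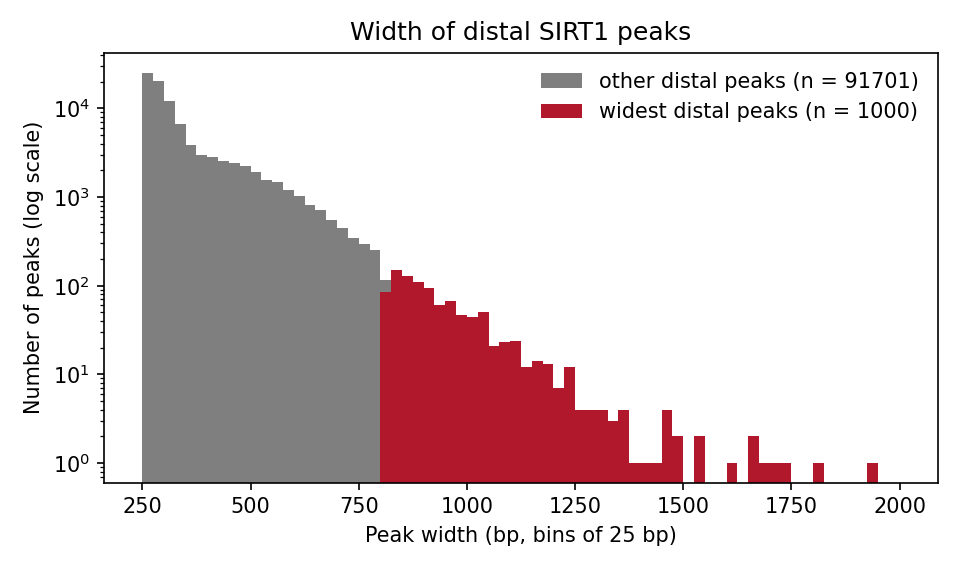
Number of distal SIRT1 peaks (log scale) by width in bins of 25 bp, with the 1000 widest in red and the other 91701 in grey. The distribution falls without a gap through the limit of 814 bp, and the widest peak spans 1941 bp.

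The height of the members was low, as in the rest of the list. Fragments at the summit and the local background were recovered from the deposited fold and −log10 p, and the lowest background of the SIRT1 list, 0.362 fragments, is called the floor. Of the members, 167 had 2 fragments, 527 had 3, 209 had 4, and 97 had 5 or more. In all, 306 of 1000 members (30.6%) rested on 4 or more fragments, where 15.6% of all distal peaks did. Fold is largely fixed by this number: on the floor, 2 fragments give a fold of 2.20, 3 give 2.94, 4 give 3.67 and 5 give 4.41. The median fold was 2.94 for members and 2.78 for other distal peaks. The share of distal peaks that were members was 0.454% at 2 fragments, 1.27% at 3, 1.82% at 4, 2.56% at 5 and 5.02% at 6 or more. Width and height thus came together, but 69.4% of members still had only 2 or 3 fragments at the summit.

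**Figure D2:**
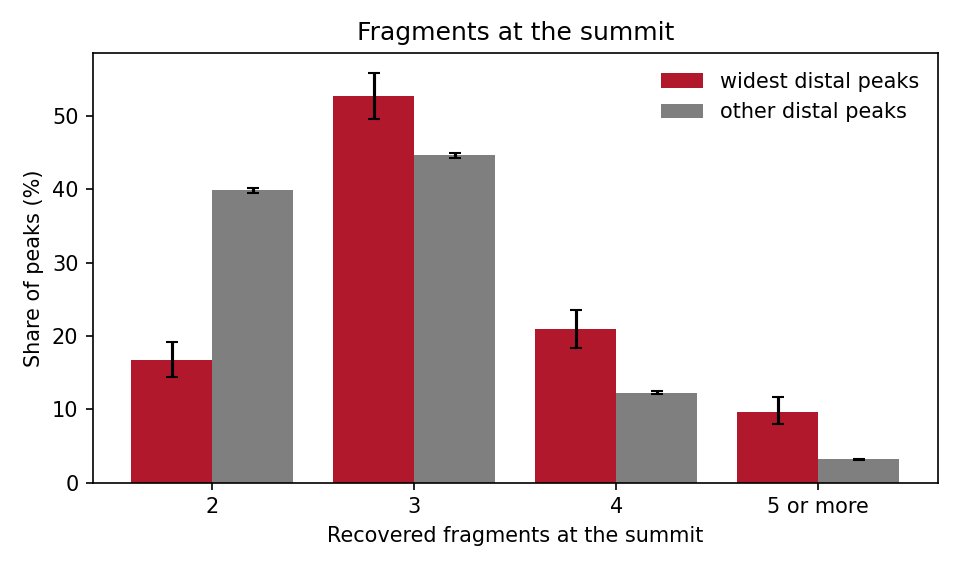
Share of peaks (%) by recovered fragments at the summit for the 1000 widest distal SIRT1 peaks (red) and the other distal peaks (grey), with 95% exact binomial intervals. Members have 2 fragments in 16.7% of cases and the other peaks in 39.9%.

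A q of at most 0.05, the authors' value from the peak caller, was reached by 3 of the 1000 members, or 0.3% (0.0619 to 0.874), where 0.142% of the SIRT1 peaks on these chromosomes reached it. The −log10 q was 0 for 71.5% of members (68.6 to 74.3) and for 86.4% of the other distal peaks (86.2 to 86.6). The highest lay on chromosome 15 from 19010837 to 19011840, 1284 kb from the nearest coding record, with a fold of 5.83 on 7 fragments and a q of 0.00411. The second, from 9099563 to 9100405 on chromosome 5, lay inside SEMA5A, an axon guidance semaphorin gene, with a fold of 5.64 on 7 fragments and a q of 0.00836. The third, from 5128506 to 5129607, was 10.99 kb from ADAMTS16, a secreted metalloprotease gene on the same chromosome, with a fold of 5.14 on 6 fragments and a q of 0.0416. The next by fold was inside the adenylyl cyclase gene ADCY2, also on chromosome 5, with 4.96 and a q of 0.0561, followed by one 223.7 kb from PLD5 on chromosome 1 with 4.87 and a q of 0.0754. The fifth by q lay on chromosome 10 from 40711751 to 40712619, with ZNF33B as the nearest coding gene at 1862 kb, and had a q of 0.0734. Of the 5 with the highest fold, 3 thus lay in the first 10 Mb of chromosome 5, which held 25 of the 1000 members. On that chromosome 24.1% of distal peaks rested on 4 or more fragments, against 15.6% of all distal peaks.

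The summit was off centre in a larger share of members than of the other distal peaks, which were narrower. It lay more than 0.25 of the peak width from the middle in 45.9% of members (42.8 to 49.0) and in 24.6% of other distal peaks (24.4 to 24.9). The median distance from the summit to the nearer edge was 239 bp in members and 112 bp in the others. This distance is bounded by the peak width, so choosing members by width allows it to be larger. Summit position comes from the same signal as the width, so both values are descriptions and were not tested. A second SIRT1 summit lay within 10 kb of 59.4% of members (56.3 to 62.5) and of 52.4% of other distal peaks (52.1 to 52.7). With the others weighted to the members' mix of chromosomes the latter was 53.7%.

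Most of the 10 widest members lay outside coding genes. So did most members and most distal peaks, of which 38.4% and 42.3% lay inside one. The widest of all, 1941 bp on chromosome 5 from 3022694 to 3024634, had its summit 272.7 kb from the homeobox gene IRX2 and 4 fragments. The second, 1801 bp on chromosome 20 from 22836826, lay 90.3 kb from LOC124904962 on 3 fragments, and the third, 1727 bp on chromosome 11 from 119988065, lay 121.7 kb from TRIM29 on 4. The next 3 lay more than 1 Mb from a coding gene. They were 1700 bp wide on chromosome 9 from 45242719 (nearest LOC112268044), 1680 bp on chromosome 20 from 29612003 (nearest LOC124904970) and 1671 bp on chromosome 2 from 92837917 (nearest LOC107985915). The seventh, 1666 bp, was inside SCARA3, a class A scavenger receptor gene on chromosome 8. The eighth, 1621 bp on chromosome 5 from 174491271, was 233.1 kb from the homeobox gene MSX2 and had 5 fragments. The ninth, 1546 bp on chromosome 16 from 33988931 and nearest to CCNYL1B, had 2 fragments only. The tenth, 1528 bp from 48239365 on chromosome 1, lay inside SLC5A9, a sodium-coupled sugar transporter gene. None of these 10 reached a q of 0.05, and their q ranged from 0.243 to 1.

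Members were spread unevenly over chromosomes. Chromosome 20 had the highest share of its distal peaks among the members, 54 of 2387 or 2.26% (1.70 to 2.94). Chromosome 8 followed with 91 of 5435 or 1.67% (1.35 to 2.05), chromosome 1 with 116 of 7188 or 1.61% (1.34 to 1.93) and chromosome 9 with 64 of 4287 or 1.49% (1.15 to 1.90). Chromosome X had 1 of 1468, or 0.0681% (0.00172 to 0.379). Its single member, from 100686646 to 100687463, was 818 bp wide, rested on 4 fragments and lay inside SYTL4, which encodes the granule protein granuphilin. The interval of X did not overlap those of chromosomes 1 to 16, 18, 19, 20 and 21. The neighbours 8, 1 and 9 in this order had overlapping intervals, and so had most other autosomes, which ran from 0.638% on chromosome 22 to 1.25% on chromosome 16. Fragment numbers also differed between chromosomes. Distal peaks on 4 or more fragments made up 26.4% on chromosome 1, 24.3% on 8, 21.8% on 20, 18.7% on 9 and 4.84% on X. On chromosome 5 they made up 24.1%, with a member share of 1.16%. The part of fragment number in the differences between chromosomes was not tested.

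The background of the H3K27ac library moved with these shares. In floors of that list (0.937 fragments), the median background of H3K27ac peaks was 2.08 on chromosome 1, 2.02 on chromosome 8, 1.73 on chromosomes 9 and 20, 1.38 on 11 autosomes and 1 on chromosome X. Across 23 chromosomes, Pearson's r between this background and the share of members was 0.809 and Spearman's rho 0.725, and 0.754 and 0.685 without X. With distal SIRT1 peaks per Mb the values were 0.578 and 0.387, and 0.3601 and 0.2998 without X. These are descriptions over chromosomes of the same cells, whose peaks share a library. Within 10-Mb bins with at least 100 distal peaks and 10 H3K27ac peaks, members made up 0.828% (0.757 to 0.903) of distal peaks in 186 bins with an H3K27ac background under 1.5 floors. They made up 1.40% (1.23 to 1.59) in 52 bins at 1.5 to 2 floors and 1.88% (1.66 to 2.13) in 42 bins above 2 floors. Over the 280 bins the correlation with the H3K27ac background was weaker than over chromosomes, with r of 0.431 and rho of 0.370. Within the 186 bins under 1.5 floors r and rho were 0.188 and 0.121. They were 0.430 and 0.405 within the 52 bins at 1.5 to 2 floors, and 0.159 and 0.0205 within the 42 bins above 2 floors. The part of this background in the width of SIRT1 peaks was not tested.

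**Figure D3:**
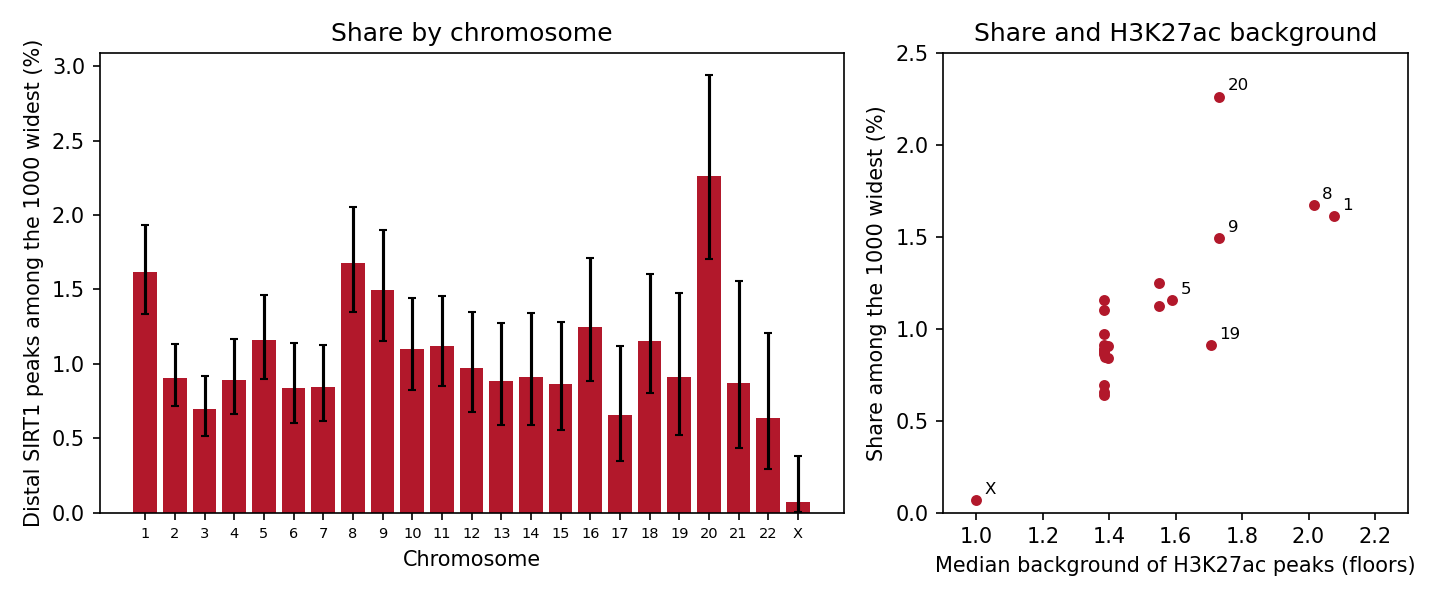
Left, share (%) of the distal SIRT1 peaks of each chromosome that are among the 1000 widest, with 95% exact binomial intervals; right, the same share against the median background of H3K27ac peaks on that chromosome, in floors of the H3K27ac list, 1 point per chromosome. Chromosome 20 is highest at 2.26%, and X is lowest on both axes.

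In the SIRT1 list itself, 49 of 1000 members (4.90%, 3.65 to 6.43) had a background above 2 floors, where 2.23% of all distal peaks did. A background above 10 floors was found for 7 members (0.7%, 0.282 to 1.44) and for 0.0861% of the others. The highest were 3 members on chromosome 9 between 60570780 and 60679244, nearest to SPATA31A5, with backgrounds of 96.2, 80.7 and 61.9 floors and folds of 1.45, 1.85 and 2.05. Next came a member on chromosome 19 from 26203135 with 50.1 floors, which lay 2074 kb from ZNF254. The other 3 lay on chromosomes 4, 5 and 19, at 11.5 to 14.3 floors. These positions lie in or beside the centromere regions of the assembly, where repeated sequence is common.

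Clusters of members also formed in such gene-free stretches. The 1-Mb bin with the most members was chromosome 9 from 44000001, where 9 of 47 distal peaks were members. They were 830 to 1114 bp wide, lay 1279 to 2009 kb from the nearest coding gene, and 4 had a background above 2 floors. The next bin held 4 of 27. On chromosome 1 from 124000001, 4 of 23 distal peaks were members, all above 2 floors, and on chromosome 2 from 92000001 there were 4 of 29.

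Other clusters lay on chromosome arms with a background near the floor. On chromosome 5, the bin from 2000001 held 6 members and the next held 5, around IRX2 and IRX1, homeobox genes of the Iroquois family. Of these 11 members, 4 were nearest to IRX2, and the closest 3 lay at 20.7, 51.8 and 55.8 kb from it with folds of 2.58, 4.22 and 3.51. No H3K27ac peak had its summit in either bin. The first 10 Mb of chromosome 5 held 25 members among 619 distal peaks, or 4.04%. This was the largest number in a 10-Mb bin, while the share was higher on chromosome 9 from 40000001, with 15 of 184 or 8.15%. The 72 H3K27ac peaks in the first 10 Mb of chromosome 5 had a median background of 3.12 floors. On chromosome 20 the bin from 24000001 held 6 members, of which 4 were nearest to SYNDIG1, a synapse protein gene, at 12.3 to 110.9 kb. The widest of them was 1464 bp on 5 fragments. On chromosome 6 the bin from 40000001 held 5, of which 2 lay inside LRFN2, a synaptic adhesion gene, with widths of 1073 and 934 bp, and 2 lay 62.6 and 64.6 kb from it. In all, 734 bins held a member and 553 of them held exactly 1. The median distance from a member to the next was 617 kb, and 20 members had another within 10 kb.

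Members lay farther from acetylated chromatin than the other distal peaks. Both sets exclude peaks that share a base with H3K27ac, so only the distance beyond that is compared. The median gap to the nearest H3K27ac peak was 179.3 kb for members and 109.1 kb for the others. Within 10 kb of H3K27ac were 79 members, or 7.90% (6.30 to 9.75), where 10.9% of all distal peaks were. Beyond 1 Mb were 10.5% of members (8.67 to 12.6) and 5.90% of the others (5.75 to 6.06). The gap was larger for members on 21 of the 22 chromosomes with at least 5 members. Among peaks with 3 fragments the medians were 155.2 kb and 108.5 kb, and among those with 4 fragments 157.0 and 110.2 kb. With backgrounds up to 2 floors only, they were 165.0 and 108.7 kb.

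**Figure D4:**
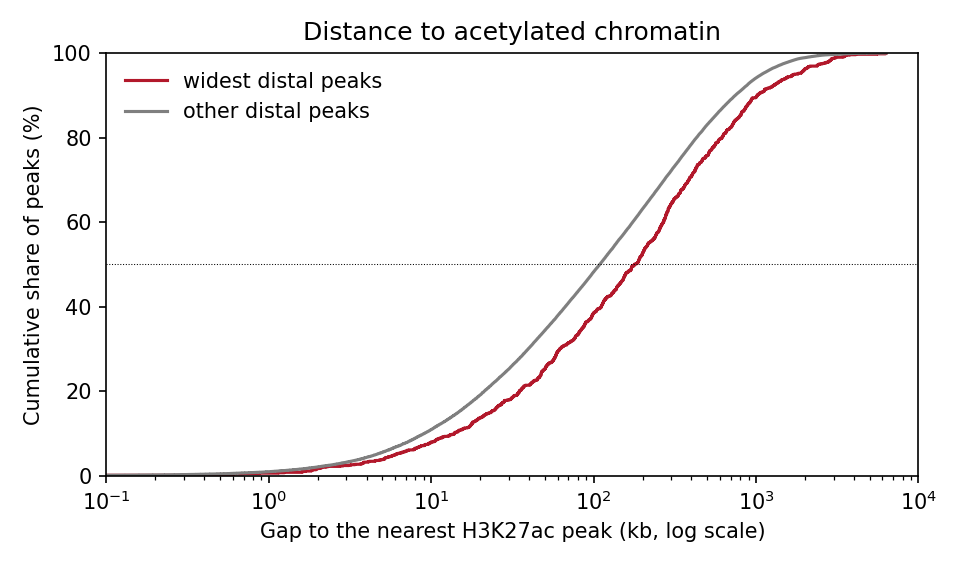
Cumulative share of peaks (%) by gap to the nearest H3K27ac peak (kb, log scale) for the 1000 widest distal SIRT1 peaks (red) and the other distal peaks (grey); the dotted line marks the median. The members' curve runs to the right, with medians of 179.3 and 109.1 kb.

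Members lay somewhat less often inside coding genes, by a difference that 2 of 8 other ways of choosing them brought within counting error. The summit was within a protein-coding record for 384 members, or 38.4% (35.4 to 41.5), where 42.3% of all distal peaks were. Any gene record, non-coding ones included, held 52.3% of members (49.2 to 55.4) and 57.3% of the others (57.0 to 57.7). More than 1 Mb from a coding gene were 7.50% of members (5.94 to 9.31) and 3.35% of the others (3.23 to 3.47). With backgrounds up to 2 floors, the shares inside a coding gene were 39.5% and 42.6%, and those beyond 1 Mb 4.94% and 2.95%. When the 1000 widest were chosen among peaks with a background of at most 2 floors, 40.3% (37.2 to 43.4) lay inside a coding gene, and with a −log10 p of at least 3 it was 40.2% (37.1 to 43.3). Both intervals include 42.3%, which is the share over all distal peaks whatever their p or background. Under the remaining alternatives the share was 36.6% to 38.6%, and every interval lay below 42.3%. These differences come from 1 library, and their spread between libraries is unknown.

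The members inside genes fell in 341 coding genes of 19974, or 1.71%, and 37 genes held more than 1. These genes were long: their median length was 244.5 kb, against 63.1 kb for the 9402 genes holding another distal peak and 24.2 kb for all genes. Of the 314 genes over 500 kb, 83 held a member. The share of peaks inside genes of that length did not stand apart, however, at 11.3% of members (9.40 to 13.4) and 10.8% of the others (10.57 to 10.97).

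NTM and PTPRT held the most members, 4 each. NTM on chromosome 11 (131370615 to 132336822) held members of 860, 864, 870 and 894 bp, all on 3 fragments with folds of 2.78 to 2.94, beside 91 other distal peaks. PTPRT, a receptor tyrosine phosphatase gene on chromosome 20 (42031890 to 43189906), held members of 889 to 942 bp, also on 3 fragments each, beside 99 others. On a background near the floor, 3 fragments fix the fold of such members. AGBL4, which encodes an enzyme that trims glutamate chains from tubulin, held 3 members on 2, 3 and 5 fragments, the widest of 1076 bp. CAMTA1, a calmodulin-binding transcription activator gene, held 3 of 819 to 1190 bp. EPHA6, an ephrin receptor gene, held 3 of 855 to 991 bp. TSHZ2, a zinc finger homeobox gene, held 3 of 822 to 931 bp, and XKR6, of the XK-related family, held 3 of 844 to 1037 bp. Among these 7 genes, PTPRT, AGBL4, EPHA6 and TSHZ2 had no H3K27ac peak in their record, CAMTA1 had 1, XKR6 had 7 and NTM had 12.

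The gene lists, of 20 genes each, held most members where their genes are long. The lists were chosen with earlier results of these data known, so their counts are descriptions. In the list of synapse and neuronal adhesion genes, 10 of 20 held a member, against 1.71% of all coding genes. The summed length of these 20 genes was 26.0 Mb and their median length 1143 kb. Among all genes over 500 kb, 26.4% held a member. CNTNAP2, a neurexin family gene, held 2 members of 1211 and 884 bp, both on 3 fragments. LRP1B, a lipoprotein receptor family gene, held 2 of 1069 and 890 bp, and ROBO2, an axon guidance receptor gene, 2 of 1014 and 840 bp. Of the neurotransmitter receptor and ion channel genes 5 of 20 held a member. RYR2, a calcium release channel gene, had 2, of 1023 and 978 bp on 5 fragments each, and the glutamate receptor gene GRID1 had 1, of 1105 bp. Of the common fragile site and other very long genes 9 of 20 did, with PTPRT at 4 and PCDH15 and AUTS2 at 2 each. In PCDH15, which encodes a protocadherin of the inner ear, the wider was 1007 bp, and in AUTS2, a gene of neuronal development, 920 bp. LSAMP, a neuronal adhesion gene named after its values were seen, held the widest member of this list, 1363 bp.

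Length went with these counts. The 60 genes of the 3 lists held 2525 distal peaks, of which 35, or 1.39% (0.967 to 1.92), were members. The interval includes the 1.08% of all distal peaks. It also includes, just above its lower end, the 0.980% of distal peaks inside a coding gene. Within a long gene, a distal SIRT1 peak was thus not detectably more often a member than elsewhere at this number of peaks.

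None of the 100 genes of the macrophage identity, NF-kB and inflammatory, sirtuin substrate and NAD, cholesterol and lipid, and autophagy and lysosome lists held a member. These genes held 143 distal SIRT1 peaks. A count of 0 of 143 allows a share of up to 2.10% by 3 counts of the total and 2.55% by the exact interval, so a lower share than the 1.08% of all distal peaks was not detectable. Of 20 genes each, 13, 18, 15, 19 and 19 in that order were acetylated at an end. No share over all coding genes is given beside these counts. Among 80 marker genes of other cell types, 2 held a member, among them PAX5, the B cell transcription factor gene, with 817 bp on 4 fragments. T and NK cell and hepatocyte genes held 0, with 21 and 34 distal peaks inside.

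**Figure D5:**
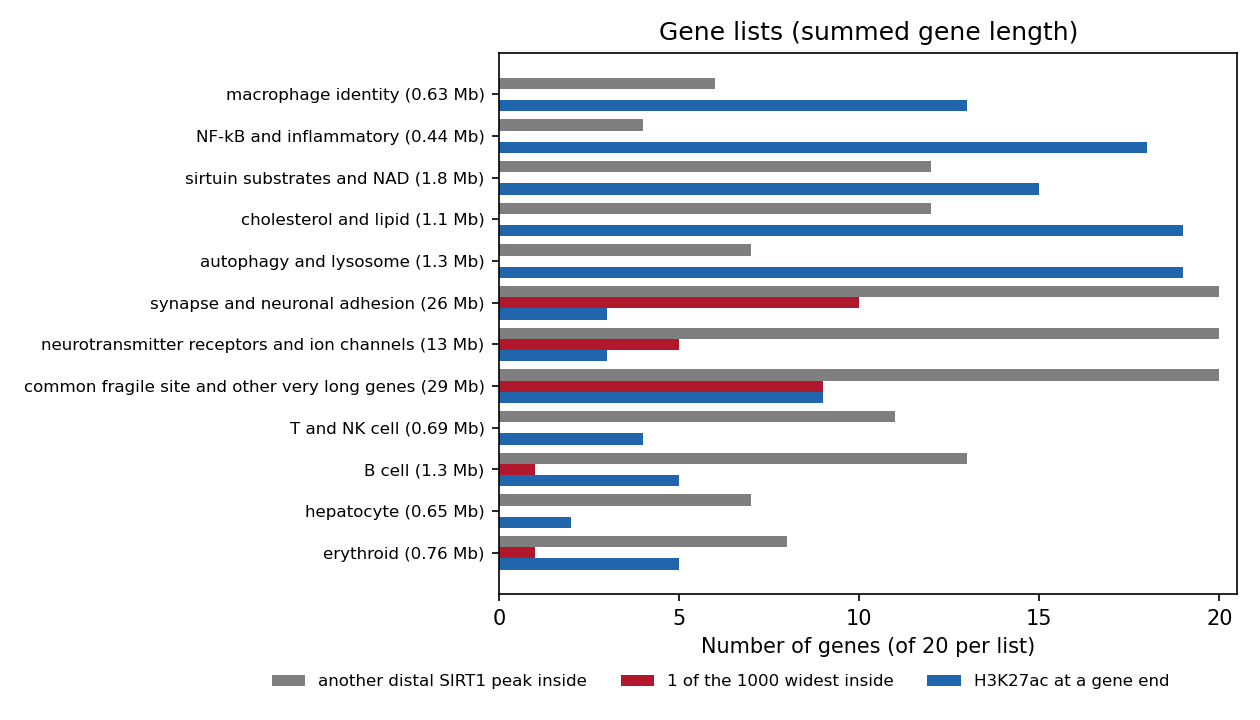
Number of genes of 20 per list that hold a distal SIRT1 peak other than the members (grey), hold 1 of the 1000 widest (red), or have H3K27ac within 1 kb of an end (blue); the summed length of each list is in brackets. Members are in 10, 5 and 9 genes of the 3 lists of long genes and in 0 of the first 5 lists.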

How the data were processed

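Peak lists from 1 H3K27ac and 1 SIRT1 library of PMA-treated THP1 cells were used. MACS2, deepTools and the build hg38 are named in the submitters' processing notes; for versions, aligner and control the sources used here give nothing. The deposited fold is a ratio to the local background at the summit. The −log10 p and −log10 q were deposited by the authors, as was the score, which was not used. Summit offsets were deposited in bases. Fragments k and background b at the summit were recovered by solving fold as k plus 1 over b plus 1 and p as a Poisson tail above k (tolerance 0.0002 in −log10 p). Exactly 1 whole number solved 99.96% of SIRT1 peaks, and 98.2% of H3K27ac peaks were solved. On peaks simulated with these same formulas, mostly at higher fragment numbers than in the SIRT1 list, 100% of 3241 were recovered. That checks the solving only, and cannot show that the deposited values follow the formulas. Total read numbers were not analysed here.

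Gene records were those of RefSeq GRCh38.p14, without strand or exons; 20037 coding records were used for gene ends. The gene of a peak is the record holding its summit, else the nearest. Named were the genes of the 10 widest members, the 5 of highest fold and of highest −log10 q, genes with at least 3 members, up to 3 genes per list, and the 5 fullest 1-Mb bins; others were chosen after their values were seen, including the promoter windows, the chromosomes and the split by H3K27ac background. The members and the 12 lists were chosen with earlier results of these data known. Some genes that the rule selects are left out of the text. With 1 library per antibody no test was run. The 8 alternatives changed the gene end window, the H3K27ac limit, the p threshold, the number kept and the background. Computation used scipy 1.17.1, pandas 2.3.3 and numpy 2.4.6 under Python 3.11.15, with figures from matplotlib 3.10.9.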

Additional observations from a re-analysis of the deposited data

Results flagged for a closer look

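Outside chromosomes 1 to 22 and X, which the choice of members leaves out, 7 of 1580 SIRT1 peaks (0.443%) were at least as wide as the narrowest member. Of these, 1 lay on chromosome Y and 6 on other contigs, and the widest spanned 1201 bp. They were noted because they lie in a portion of the list that no comparison above used.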

How the results depend on the processing

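Over 21 results and 8 alternatives, 152 of 168 values stayed within the interval of the reported value or, for counts, within 1.5 times it, and 16 moved. Gene end windows of 500 and 2500 bp, a limit of less than 50% of the peak covered by H3K27ac, and no H3K27ac peak within 1 kb moved none of them and kept 988, 977, 995 and 994 of the 1000 members. A −log10 p of at least 3 kept 701 members; the median width became 864.5 bp and 1 hepatocyte gene held a member. With the 500 widest, the median width was 1003 bp, 5.60% lay within 10 kb of H3K27ac, 171 genes held a member and B cell genes held 0. With the 2000 widest, the median width was 814 bp and 636 genes and 41 list genes held a member. By list the 41 were 12 synapse, 8 receptor and channel, 15 very long, 2 B cell, 1 macrophage identity, 1 sirtuin and NAD, 1 hepatocyte and 1 erythroid gene. The absence of members from macrophage and sirtuin genes thus holds for the 1000 widest and not for the 2000 widest. Keeping peaks with a background of at most 2 floors gave 0% above 2 floors by construction and kept 951 members. The direction of the comparison with H3K27ac distance was as reported with that limit. No paired analysis was possible because each antibody had 1 library. The depth limits the reading of every member: 69.4% rested on 2 or 3 fragments at the summit.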

Other observations

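Some members lay close to acetylated chromatin without touching it. The nearest, 993 bp on chromosome 6 from 170006672, was 90 bp from an H3K27ac peak. The second, 1059 bp on chromosome 16 from 11611962, lay 290 bp from one inside LITAF, a gene that lipopolysaccharide induces in macrophages. Both had 4 fragments and a fold of 3.67. In all, 6 members (0.6%, 0.220 to 1.30) were within 1 kb of H3K27ac, and 0.939% of the other distal peaks were.

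Of the members, 14.4% (12.3 to 16.7) had their summit inside a long non-coding RNA record, and 16.5% of the others did. Pseudogene records were touched by 29 members, or 2.90%, and by 2.06% of the others, and a wider peak covers more bases that can touch a record. No member overlapped any of 1562 miRNA hairpins, but no share of the other distal peaks is given to compare this with.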
